A study of Mus musculus with 6 samples.

Results

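The high mobility group (HMG) genes described here are Hmgb1, Hmgb2, Hmgb3, Hmga1, Hmga2, Hmgn1 and Hmgn2, together with the pseudogenes Gm4739 and Gm13237, which are copies of Hmgb2, and Gm6104, a copy of Hmgb3. These 10 genes were picked by symbol, with differences between the groups of this study already known, and each symbol had 1 row among the 56691 gene rows of the count table. All 10 passed the filter on low counts, but Gm13237 did so only through the HMGB2 libraries. It had 3, 6 and 4 counts in the vector libraries, below the minimum count of 10. Because the choice used the comparison of the groups, the levels and fold changes of the 10 genes are given as a description, with no p-value.

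Gene expression was measured by RNA sequencing of total RNA from primary cardiomyocytes of neonatal mice (NMCMs). The HMGB2 group (3 libraries) received an adenovirus, Ad5-cTNT-HMGB2, with HMGB2 behind the promoter of cardiac troponin T (cTNT), which is active mainly in heart muscle cells. The vector group (3 libraries) received the Ad5-cTNT vector, so both groups carry a virus with the same promoter, and no library without virus was analysed here. The source of the HMGB2 coding sequence, the dose and the time of collection are not stated, nor is it said whether the replicates were separate cultures or isolations.

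HMG proteins are abundant non-histone proteins of chromatin. The HMGB proteins carry a pair of HMG boxes, which bend DNA, and an acidic tail. HMGA proteins bind AT-rich DNA through short AT-hook motifs, and HMGN proteins bind nucleosomes. Several members are high in embryonic and dividing tissues, Hmgb2 and Hmga2 among them, and HMGB1 can also leave the cell and act as a signal of damage. Processed pseudogenes are copies of spliced transcripts put back into the genome, so a short read from the parent gene can match the copy as well.

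The copies were compared with their parents in the GENCODE M21 transcripts of GRCm38. Hmgb2 lies on the plus strand at chr8:57511907-57515999, and its transcript Hmgb2-201 has 2628 bases, of which 633 (24.1%) are coding, at positions 124 to 756. Gm4739 is a processed pseudogene of 1 exon and 633 bases at chr10:26107789-26108421, plus strand, and it spans exactly this coding sequence with 99.7% identity. Counted from 1 at the first base of the start codon, Gm4739 differs from Hmgb2 by C555T and C606A. A read that lies within the coding sequence must cover a difference to be told apart. The last 150 coding bases, positions 484 to 633, are shown because they hold both differences, and the capitals mark them.
Hmgb2: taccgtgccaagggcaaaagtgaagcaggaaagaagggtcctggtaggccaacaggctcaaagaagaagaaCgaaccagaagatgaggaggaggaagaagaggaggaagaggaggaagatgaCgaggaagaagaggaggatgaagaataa
Gm4739: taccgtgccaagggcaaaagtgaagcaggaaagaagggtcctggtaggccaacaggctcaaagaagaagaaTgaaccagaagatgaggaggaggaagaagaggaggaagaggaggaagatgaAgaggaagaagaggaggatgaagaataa
The stretch runs to the stop codon and codes for the acidic tail at its end. Of all stretches of 100 bases in the Hmgb2 coding sequence, 85.2% are found unchanged in Gm4739, and of those of 150 bases 83.7%. Over the whole Hmgb2 transcript the share at 100 bases is 18.0%, since the copy as annotated does not hold the untranslated regions. Sequence beyond the annotated copy was not compared.

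Gm13237, a processed pseudogene of 635 bases at chr4:146564453-146565087, minus strand, differs from the Hmgb2 coding sequence by G5A, C6T, C117T, G160T, C443T and C606A and by 2 gap bases (98.7% identity). Its differences are spread out, and 46.1% of the coding stretches of 100 bases are found unchanged in it. Gm6104, a processed pseudogene of 603 bases at chr1:4880049-4880651, minus strand, spans the 603 coding bases of Hmgb3 (plus strand, chrX:71555918-71560676) with 99.5% identity. It differs by C312T, G450A and C518T, which are shown in capitals within 41 bases each.
Hmgb3: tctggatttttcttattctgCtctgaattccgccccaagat
Gm6104: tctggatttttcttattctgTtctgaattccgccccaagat
Hmgb3: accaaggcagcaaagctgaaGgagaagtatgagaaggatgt
Gm6104: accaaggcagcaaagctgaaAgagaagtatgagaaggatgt
Hmgb3: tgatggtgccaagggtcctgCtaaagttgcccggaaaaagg
Gm6104: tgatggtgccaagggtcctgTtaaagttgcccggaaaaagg
Of the Hmgb3 coding stretches of 100 bases, 49.6% are found unchanged in Gm6104. How the authors counted reads that match several genes is not given in the sources used here, so the split of counts between a parent and its copies is uncertain.

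The coding genes themselves are less alike. The first 90 coding bases of the 3 Hmgb genes are shown to compare them with the copies, with capitals where the genes differ, at 27 of the 90 positions.
Hmgb2: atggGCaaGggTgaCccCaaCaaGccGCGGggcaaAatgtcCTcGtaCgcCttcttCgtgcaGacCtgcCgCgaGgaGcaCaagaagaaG
Hmgb1: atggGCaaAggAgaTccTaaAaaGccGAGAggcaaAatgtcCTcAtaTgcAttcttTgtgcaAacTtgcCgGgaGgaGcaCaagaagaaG
Hmgb3: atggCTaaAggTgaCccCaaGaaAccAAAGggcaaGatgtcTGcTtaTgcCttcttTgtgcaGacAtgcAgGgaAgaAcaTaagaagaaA
Most of the capitals are single bases that stand apart, and the 3 genes share 63 of the 90 bases. Over the whole coding sequence Hmgb2 is 75.6% identical to Hmgb1 and 70.4% to Hmgb3, with longest shared runs of 20 and 23 bases. Hmgb1 and Hmgb3 are 71.1% identical, Hmga1 and Hmga2 53.5%, and Hmgn1 and Hmgn2 56.2%. No shared run within these pairs is longer than 27 bases.

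Library totals lay between 12498215 and 16618365 counts, mitochondrial genes took 4.96% to 5.37% of counts, and normalization factors lay between 0.986 and 1.02. On the second principal component (14.3% of the variance) vector 1 (14.2) and HMGB2 3 (10.6) stood apart from the other 4 libraries (-8.47 to -4.37). Values without both libraries stand beside the results that they move. Of 10 cardiomyocyte markers 8 were higher in HMGB2 libraries (edgeR's quasi-likelihood test, adjusted p under 0.05), and their summed level was 27750 to 28220 CPM (counts scaled to a common library size) in HMGB2 libraries, against 16910 to 18280 CPM in vector libraries. Tnnt2, which encodes cardiac troponin T, had 4300 ± 422 CPM with HMGB2 and 2398 ± 323 CPM with vector (SD, n = 3 each, edgeR adjusted p = 0.000511). Of 8 fibroblast, 7 endothelial and 7 macrophage markers, 2, 2 and 3 were lower. Of all genes tested, 14.4% were higher and 10.8% lower past the same threshold. Summed levels with HMGB2 and vector were 4404 to 4497 and 4954 to 5028 CPM for fibroblast markers, 2488 to 2543 and 2849 to 2893 CPM for endothelial markers, and 63.8 to 76.0 and 85.1 to 117 CPM for macrophage markers. Of 6 smooth muscle and pericyte markers 1 was higher and 1 lower, with a summed level of 236 to 258 CPM with HMGB2 and 184 to 214 CPM with vector. The 4 red cell markers, of which Hbb-bt was at 0, summed to 0.364 to 0.690 CPM with HMGB2 and 0.0802 to 1.10 CPM with vector, too few counts for the test. In bulk samples, fewer cells of a type and less RNA per cell cannot be told apart, and the part these markers have in the results on the HMG genes was not tested.

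Of the 10 genes, Hmgb2, Gm4739 and Gm13237 were higher in the HMGB2 libraries past the threshold (edgeR, Benjamini-Hochberg adjusted p under 0.05 over 15429 genes), a direction in which 14.4% of all genes tested passed. Hmgb3 was lower past the threshold, where 10.8% of all genes passed, and 6 genes did not pass. The same 3 genes had all HMGB2 libraries above all vector libraries (21.6% of all genes did), and Hmgb3 and Hmga2 had all below (18.9%). The 10 genes were picked with this comparison known, so nothing is read from these counts.

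Hmgb2, the mouse gene with the name of the transgene, was picked with the group difference known. Hmgb2 therefore gives no independent check on the labels, and whether reads of the transgene match its row was not tested. Its levels were 175, 196 and 182 CPM in HMGB2 1, 2 and 3, against 46.8, 44.8 and 36.3 CPM in vector 1, 2 and 3. All 3 HMGB2 libraries lay far above the vector libraries, and the spread within each group was small (coefficient of variation 5.90% with HMGB2 and 13.1% with vector). The mean was 184 ± 10.9 CPM with HMGB2 and 42.6 ± 5.59 CPM with vector (SD, n = 3 each). The fitted difference was 2.11 on the log2 scale (SE 0.10), or 4.33-fold. Without vector 1 and HMGB2 3 it was 2.197. Reads of the transgene and of the mouse gene are counted on the same row wherever both match it, so this difference does not say how much came from each.

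Gm4739 had 55.0, 63.1 and 61.2 CPM with HMGB2, against 7.38, 7.89 and 6.15 CPM with vector. The groups did not overlap, and the lowest HMGB2 library stood several times above the highest vector library. The log2 fold change was 3.07 (SE 0.11), or 8.37-fold, a larger ratio than that of the Hmgb2 row. Gm13237 had 30, 33 and 28 counts with HMGB2, against 3, 6 and 4 counts with vector, or 1.80, 2.28 and 1.70 CPM against 0.241, 0.438 and 0.286 CPM. It too was higher in every HMGB2 library, with a log2 fold change of 2.54 (SE 0.36) that rests on few counts in the vector libraries.

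A further copy of the Hmgb2 coding sequence, Gm13160, was looked at after its values were seen. It matches Hmgb2 at 97.9% over 627 bases, and it had 15, 17 and 14 counts with HMGB2, against 2, 1 and 4 counts with vector. Of the 9 annotated genes that match an Hmgb2 transcript at 95% identity or more over 100 bases or more, 5 match over at least 50% of the coding length, and these are Gm4739, Gm13237, Gm13160, Gm13232 and Gm13167. Gm13232 and Gm13167 each averaged 0.0230 CPM with HMGB2 and 0 with vector. The other 4 genes match a stretch of at most 148 bases. Among them Tmx3, which encodes a thioredoxin-related transmembrane protein, had 115 ± 0.939 CPM with HMGB2 and 117 ± 3.94 CPM with vector (SD, n = 3 each), a log2 difference of -0.02 (SE 0.07).

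**Figure D1:**
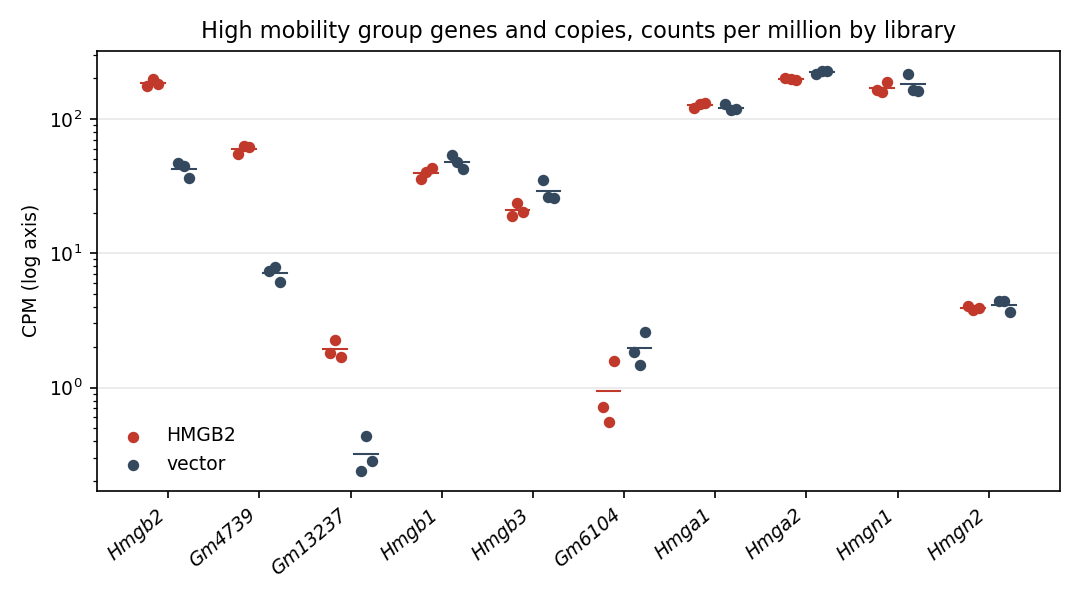
Levels of the 10 genes in each library in CPM (y axis, log scale), with 1 point per library, HMGB2 in red and vector in dark blue, and a line at each group mean. Hmgb2, Gm4739 and Gm13237 lie above vector in all 3 HMGB2 libraries, Hmgb3 and Hmga2 lie below, and the groups of the other 5 genes overlap.

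Summed over Hmgb2, Gm4739 and Gm13237, the level was 232, 262 and 245 CPM with HMGB2, against 54.4, 53.1 and 42.7 CPM with vector. The sum puts reads together that the copies could split, and all 3 HMGB2 libraries lay above all 3 vector libraries, as they did in each row alone. The log2 fold change of the sum was 2.30 (SE 0.10), or 4.92-fold, and 2.37 without vector 1 and HMGB2 3. With every copy that spans at least 50% of the coding length added, it was also 2.30. The change of a sum lies between those of its rows by construction, here the Hmgb2 row and the Gm4739 row.

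The split between these rows differed by group. Gm4739 took 23.7% of the summed counts in HMGB2 1 (Wilson 95% interval 22.4 to 25.1), 24.1% in HMGB2 2 (22.8 to 25.5) and 25.0% in HMGB2 3 (23.7 to 26.4). It took 13.5% in vector 1 (11.2 to 16.3), 14.9% in vector 2 (12.5 to 17.6) and 14.4% in vector 3 (11.8 to 17.5). The 3 shares within a group were close together, and no interval of an HMGB2 library met one of a vector library. Gm13237 took 0.778%, 0.870% and 0.693% of the counts with HMGB2, against 0.442%, 0.825% and 0.670% with vector, and these ranges overlap. The intervals cover counting error only. The shares come from the comparison that chose the genes and are given with no test.

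**Figure D2:**
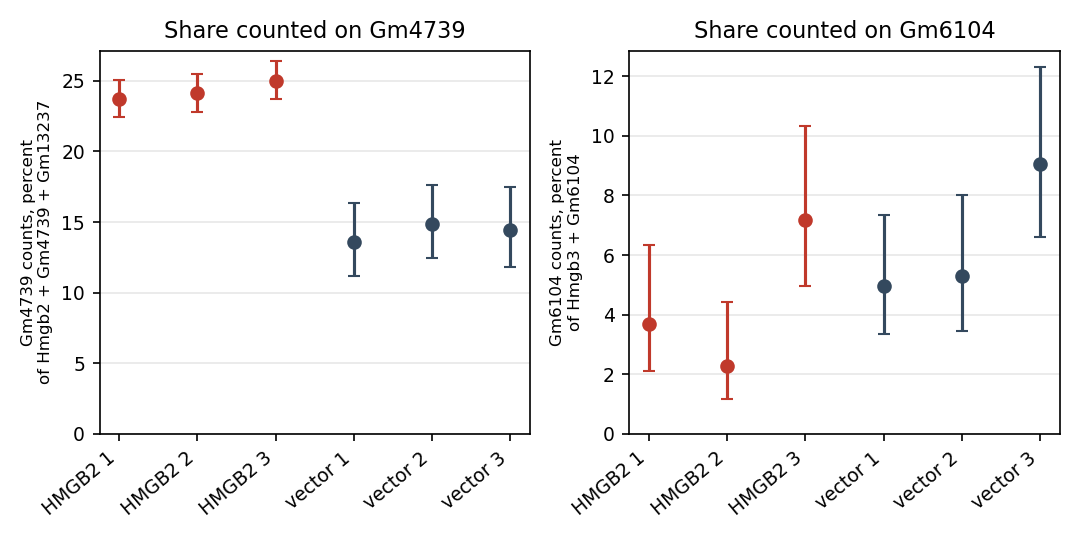
Share of counts on a copy in each library (y axis, percent), with Wilson 95% intervals as error bars, HMGB2 in red and vector in dark blue. Left, Gm4739 among Hmgb2, Gm4739 and Gm13237, with 23.7% to 25.0% in HMGB2 libraries and 13.5% to 14.9% in vector libraries; right, Gm6104 among Hmgb3 and Gm6104, where the intervals of the groups overlap.

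Hmgb3, which is known for its level in blood stem and progenitor cells of the mouse, had 18.8, 23.7 and 20.4 CPM with HMGB2, against 35.2, 26.1 and 25.8 CPM with vector. The groups did not overlap, but HMGB2 2 came close to vector 2 and 3, and vector 1 lay above the rest. The mean was 20.9 ± 2.47 CPM with HMGB2 and 29.1 ± 5.32 CPM with vector (SD, n = 3 each), with a log2 fold change of -0.47 (SE 0.14). The gap of vector 1 to the other vector libraries was 0.44 on the log2 scale. Without vector 1 the log2 fold change was -0.31 and no longer past the threshold, and without vector 1 and HMGB2 3 together it was -0.30 and past it. The call was also lost without HMGB2 1 (-0.39), HMGB2 3 (-0.45) or vector 2 (-0.54).

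Gm6104, the copy of Hmgb3, had 12, 8 and 26 counts with HMGB2, against 23, 20 and 36 counts with vector. HMGB2 3 lay 1.20 above the other HMGB2 libraries on the log2 scale and within the vector range. The log2 fold change was -1.03 (SE 0.41) and not past the threshold, against -1.60 without HMGB2 3 and -1.64 without vector 1 and HMGB2 3, both past it. Gm6104 took 3.69% of the counts of Hmgb3 and Gm6104 in HMGB2 1 (Wilson 95% interval 2.13 to 6.34), 2.28% in HMGB2 2 (1.16 to 4.43) and 7.18% in HMGB2 3 (4.95 to 10.3). It took 4.98% in vector 1 (3.34 to 7.36), 5.29% in vector 2 (3.45 to 8.03) and 9.07% in vector 3 (6.62 to 12.3), so the groups overlap. The sum of both rows was 19.5, 24.2 and 21.9 CPM with HMGB2, against 37.0, 27.6 and 28.4 CPM with vector. All 3 HMGB2 libraries lay below the vector libraries, with a log2 fold change of -0.50 (SE 0.13), which was -0.36 without vector 1.

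Hmgb1, the most studied HMGB gene, lies on the minus strand at chr5:149046702-149184489, and its exons overlap Uspl1 on the other strand and Mm2pr on the same strand. The strand setting of the counting is not given, so reads from such overlaps cannot be told apart, which also holds for Hmga1 (AI413582 and Gm49774 on the other strand) and Hmga2 (1700006J14Rik on the other strand). It had 35.7, 40.3 and 43.0 CPM with HMGB2, against 54.2, 47.5 and 42.1 CPM with vector. HMGB2 3 was above vector 3, so the groups overlapped. The mean was 39.7 ± 3.71 CPM with HMGB2 and 48.0 ± 6.04 CPM with vector (SD, n = 3 each), and their log2 difference of -0.27 (SE 0.11) did not pass the threshold. Without vector 1 and HMGB2 3 it was -0.24 and passed.

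The Hmgb1 row held a minor part of the counts of its sequence family. Of 86 annotated genes that match an Hmgb1 transcript, 60 match over at least 50% of the coding length, and 35 of these had counts. The Hmgb1 row took 31.5% to 34.0% of the summed counts per library. The copies together had 77.5 to 88.7 CPM with HMGB2 and 88.5 to 105 CPM with vector. Gm5518, 99.2% identical over 645 bases, was the highest of them, with 26.5 ± 3.39 CPM with HMGB2 and 30.1 ± 3.75 CPM with vector (SD, n = 3 each). Hmgb1-ps7 (20.8 ± 2.54 CPM with HMGB2 and 23.0 ± 4.85 CPM with vector) and Gm15387 (14.1 ± 0.712 CPM with HMGB2 and 17.6 ± 1.84 CPM with vector) came next. None of these 3 copies passed the threshold. Summed over the family, the log2 fold change was -0.24 (SE 0.09), close to that of the Hmgb1 row alone.

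Hmga2, an AT-hook gene of embryonic tissues that is a target of the let-7 miRNAs, lies at chr10:120361275-120476469 on the minus strand. It had 201, 197 and 195 CPM with HMGB2, against 214, 227 and 228 CPM with vector. All 3 HMGB2 libraries lay below the vector libraries, and the spread within a group was the smallest of the 10 genes with HMGB2 (coefficient of variation 1.48%). The mean was 198 ± 2.93 CPM with HMGB2 and 223 ± 7.60 CPM with vector (SD, n = 3 each). At -0.17 (SE 0.07), its log2 fold change did not pass the threshold. It was -0.20 without vector 1 and -0.19 without vector 1 and HMGB2 3, both past it. No annotated gene matches Hmga2 at 95% identity over 100 bases, so no other row held copies of it.

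Hmga1, the other AT-hook gene (plus strand, chr17:27556497-27563674), had 120, 129 and 130 CPM with HMGB2, against 129, 115 and 119 CPM with vector. The 3 HMGB2 libraries lay above vector 2 and 3, but vector 1 lay within their range, and the log2 fold change was 0.06 (SE 0.07). Hmga1b, which matches it at 99.8% over 1602 bases, had 60.3 ± 0.818 CPM with HMGB2 and 53.5 ± 2.59 CPM with vector (SD, n = 3 each). Its log2 fold change of 0.17 (SE 0.07) had an edgeR adjusted p of 0.116. The sum of both rows had a log2 fold change of 0.10 (SE 0.07).

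Hmgn1, which encodes a nucleosome-binding protein (minus strand, chr16:96120618-96127729), had 163, 159 and 188 CPM with HMGB2, against 217, 165 and 160 CPM with vector. The highest library of each group was one of the pair that stood apart, HMGB2 3 (0.22 above the other HMGB2 libraries on the log2 scale) and vector 1 (0.41 above the other vector libraries). The log2 fold change was -0.09 (SE 0.12) with all libraries, 0.06 without vector 1 and -0.01 without both. The difference with all libraries was smaller than its SE, so no direction is read from it. The Hmgn1 row held 98.9% to 99.1% of the counts of Hmgn1 and its 4 matching genes.

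Hmgn2, its close relative (minus strand, chr4:133964738-133968650), had 4.03, 3.79 and 3.94 CPM with HMGB2, against 4.41, 4.38 and 3.65 CPM with vector. The groups overlapped, and the log2 fold change was -0.08 (SE 0.17). This row held only 13.9% to 19.1% of the counts of Hmgn2 and its 13 matching genes. Most of the rest was on Gm10282, named Hmgn2-ps in the count table, which matches Hmgn2 at 99.3% over 1151 bases. Gm10282 had 12.8, 12.8 and 12.3 CPM with HMGB2, against 19.2, 20.6 and 14.9 CPM with vector. All 3 HMGB2 libraries were below the vector libraries, as in 18.9% of all genes. The log2 fold change of -0.53 (SE 0.13) passed the threshold (edgeR adjusted p = 0.0173), where 10.8% of all genes were lower. Gm10282 was named after its values were seen. Summed over the family, the level was 21.4 ± 0.621 CPM with HMGB2 and 28.2 ± 3.70 CPM with vector (SD, n = 3 each), with a log2 fold change of -0.40 (SE 0.11). The sum was chosen after the data were seen and is given with no test.

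Levels of different genes were compared per length, in FPKM (fragment counts divided by gene length and library size). In HMGB2 libraries Gm4739 was the highest of the 10 at 94.9 ± 6.92 FPKM, followed by Hmgb2 (61.7 ± 3.53 FPKM), Hmga1 (59.8 ± 2.94 FPKM), Hmgn1 (53.1 ± 5.33 FPKM) and Hmga2 (29.3 ± 0.332 FPKM; SD, n = 3 each). Gm4739 lay above Hmgb2 in all 3 of these libraries, while Hmgb2 and Hmga1 overlapped in range, as did Hmga1 and Hmgn1. In vector libraries Hmga1 (56.5 ± 3.56 FPKM) and Hmgn1 (55.6 ± 9.95 FPKM) overlapped at the top, with Hmga2 next at 32.6 ± 0.942 FPKM. Hmgb2 (14.1 ± 1.87 FPKM), Hmgb3 (12.9 ± 2.44 FPKM), Gm4739 (11.2 ± 1.37 FPKM) and Hmgb1 (9.47 ± 1.23 FPKM) followed, and each overlapped in range with the next. Hmgb2 was thus the fourth of the 10 genes in vector libraries and the second in HMGB2 libraries. Among the lowest, Gm13237 had 3.04 ± 0.469 FPKM with HMGB2 and 0.503 ± 0.157 FPKM with vector. Hmgn2 had 1.29 ± 0.0436 FPKM with HMGB2 and 1.34 ± 0.142 FPKM with vector. The Hmgn2 row held 13.9% to 19.1% of its family's counts, the Hmgb1 row 31.5% to 34.0% and the Hmga1 row 66.3% to 69.7%. Their places in this order therefore depend on how reads were split among copies. The gene lengths implied by the counts and the FPKM were 3003 bases for Hmgb2 and 633 bases for Gm4739. Reads of the shared coding sequence can fall on either row, so the FPKM of Hmgb2 and Gm4739 cannot be ranked as expression of separate genes. In CPM the order was the reverse, with 184 for Hmgb2 and 59.8 for Gm4739 in HMGB2 libraries.

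**Figure D3:**
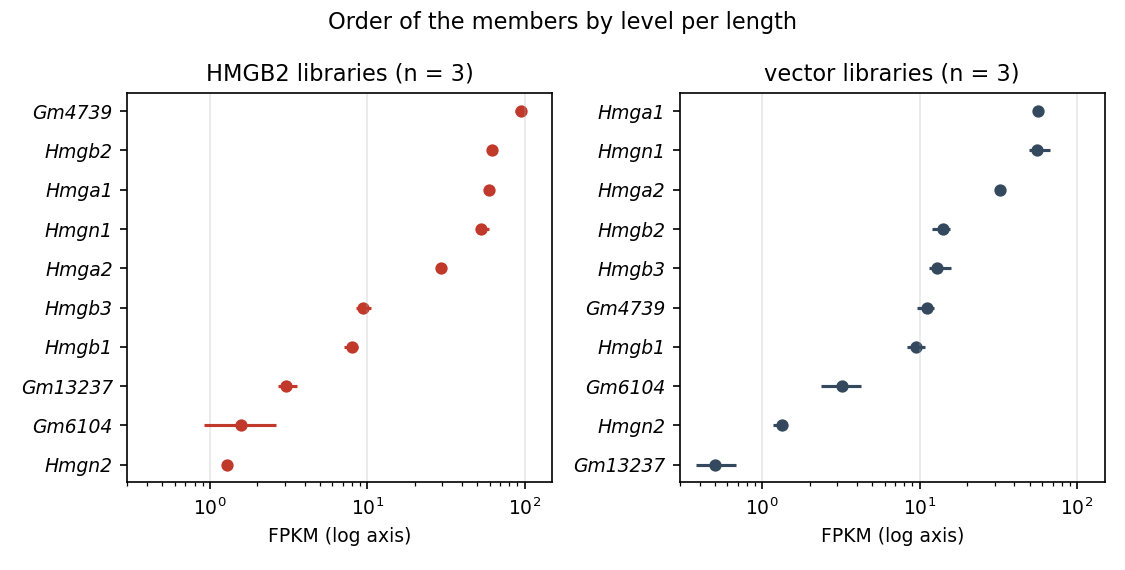
The 10 genes in order of level per length (x axis, FPKM, log scale) in HMGB2 libraries (left) and vector libraries (right), with points at the mean of 3 libraries and lines from the lowest to the highest. Gm4739 and Hmgb2 lead with HMGB2, at 94.9 and 61.7 FPKM, and Hmga1 and Hmgn1 lead with vector, at 56.5 and 55.6 FPKM.

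The other genes of the HMG families and of their known partners were read from lists. Across all 15429 genes tested the median log2 fold change was -0.00216, and 14.4% were higher and 10.8% lower past the threshold. These are the shares to set beside each count of the main fit. In other fits the number of all genes called moved too. Against 1662 genes lower with all libraries, there were 866 without HMGB2 1, 897 without HMGB2 2 and 1420 without HMGB2 3. There were 1960 without vector 1, 973 without vector 2 and 1109 without vector 3. Of 8 other HMG genes, Hmgb4 was at 0 in all libraries, and 0 of the remaining 7 passed in edgeR, DESeq2 or limma on log2(FPKM + 1). Their median log2 fold change was 0.17, and 2 had an unadjusted p under 0.05 in edgeR, both higher. Without vector 1, 2 of these 7 passed as higher, without vector 1 and HMGB2 3 together 3 did, and with no filter on low counts 1 did. Of all genes, 2526 were higher without vector 1 and 2432 with no filter on low counts, against 2224 in the main fit. Hmgxb3, an HMG-box gene, had 51.0 ± 5.79 CPM with HMGB2 and 53.0 ± 8.80 CPM with vector (SD, n = 3 each, edgeR adjusted p = 0.791).

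Of 25 other genes with an HMG box that act in chromatin or transcription, 5 fell (Sox6, Sox7 and Sox18, and, named after their values were seen, Lef1 and Tcf7) and 20 did not pass, where 10.8% of all genes fell. The list's median was -0.10. Sox6, a regulator of muscle fibre and red cell development, had 7.35 ± 0.852 CPM with HMGB2 and 11.9 ± 1.74 CPM with vector (SD, n = 3 each), or -0.70 in log2 fold change (SE 0.15), with an edgeR adjusted p of 0.00845. Sox7 and Sox18 are endothelial regulators, and so is Sox17, named after its values were seen, which did not pass. Sox17 had 13.79 ± 0.809 CPM with HMGB2 and 13.95 ± 2.43 CPM with vector (edgeR adjusted p = 0.961). Sox7 had 78.4 ± 1.95 CPM with HMGB2 and 94.0 ± 2.39 CPM with vector (edgeR adjusted p = 0.0190). Sox18 had 8.84 ± 1.04 CPM with HMGB2 and 13.3 ± 2.33 CPM with vector (edgeR adjusted p = 0.0224). The count that fell was 1 without HMGB2 2, 2 without HMGB2 1, HMGB2 3, vector 2 or vector 3, and 4 without vector 1. It was 2 with limma on log2(FPKM + 1) and 0 in that fit with no filter. The number of all genes that fell moved as well. It was 897 without HMGB2 2, 1960 without vector 1, 1112 with limma and 671 with limma and no filter, against 1662 in the main fit.

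Among 10 receptors and extracellular partners of HMGB proteins, 2 fell, a share not far from the 10.8% of all genes, with a list median of -0.15. Cxcl12, a chemokine that forms a complex with extracellular HMGB1, had 105 ± 6.24 CPM with HMGB2 and 150 ± 6.51 CPM with vector (SD, n = 3 each), or -0.51 in log2 fold change (SE 0.07), with an edgeR adjusted p of 0.00103. Thbd, which encodes the endothelial receptor thrombomodulin, had 84.2 ± 1.25 CPM with HMGB2 and 103 ± 3.54 CPM with vector (edgeR adjusted p = 0.0121). The count was 1 without HMGB2 1, HMGB2 2 or vector 2, and 1 with limma on log2(FPKM + 1) and no filter. Of the 5 genes that encode the SET complex, in which HMGB2 is a subunit, Trex1 was at 0 and 2 of the other 4 fell (10.8% of all genes did), with a median of -0.31. Set, a histone chaperone, had 122 ± 7.89 CPM with HMGB2 and 151 ± 15.0 CPM with vector (SD, n = 3 each, edgeR adjusted p = 0.0352). Nme1, a nucleoside diphosphate kinase, had 63.6 ± 10.6 CPM with HMGB2 and 91.3 ± 16.4 CPM with vector (edgeR adjusted p = 0.0280). The SET complex count was 0 without HMGB2 1, HMGB2 2 or vector 2, 1 without vector 1 (where 1 gene also rose) and 3 without vector 3. With all libraries it was 1 with library totals only, 3 with no filter on low counts and 0 in the 3 limma fits.

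Linker histones bind nucleosomes in competition with HMG proteins. Of 7 listed, 4 were tested and 1, Hist1h1c, passed as higher, where 14.4% of all genes did. Hist1h1c had 100 ± 9.80 CPM with HMGB2 and 68.3 ± 11.8 CPM with vector (SD, n = 3 each), or 0.55 in log2 fold change (SE 0.12), with an edgeR adjusted p of 0.00994. The median of the 4 was 0.16, and Hist1h1c no longer passed without vector 2 or with limma on log2(FPKM + 1) and no filter. H1f0, the replacement linker histone, had 201 ± 13.7 CPM with HMGB2 and 236 ± 21.7 CPM with vector (edgeR adjusted p = 0.0866). On the Lin28, let-7 and Igf2bp axis, which acts on Hmga2 and its relatives, Lin28a was at 0 and 2 of the 7 genes tested fell (10.8% of all genes did), with a median of -0.07. Igf2bp2, an RNA-binding protein whose transcription HMGA2 promotes in mouse muscle, had 96.4 ± 6.12 CPM with HMGB2 and 135 ± 5.54 CPM with vector (SD, n = 3 each), or -0.49 in log2 fold change (SE 0.08), with an edgeR adjusted p of 0.00137. Arid3a, a DNA-binding factor, had 10.9 ± 0.648 CPM with HMGB2 and 16.8 ± 3.99 CPM with vector (edgeR adjusted p = 0.0224). The count was 1 when any library other than vector 1 was left out, and 1 in the 3 limma fits.

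Hmgb2 and Hmga2 are also read as genes of dividing cells, so 16 cycling genes were set beside them. Tubb5, a tubulin gene, was the only one of the 16 to pass, no larger a share than the 10.8% of all genes that fell, with 1038 ± 35.2 CPM with HMGB2 and 1239 ± 89.0 CPM with vector (SD, n = 3 each), or -0.25 in log2 fold change (SE 0.08), with an edgeR adjusted p of 0.0363. Mki67 had 191 ± 44.6 CPM with HMGB2 and 222 ± 59.0 CPM with vector (edgeR adjusted p = 0.535). The list's median was -0.08, and its count was 0 without HMGB2 1, HMGB2 2 or vector 3 and 3 without vector 1 and HMGB2 3 together. It was also 0 with library totals only and in the 3 limma fits. Without those 2 libraries, 6 of the other HMG-box genes fell and 1 rose, 3 of the receptors and partners fell and 2 rose, and 2 genes of the SET complex fell and 1 rose. In the same fit 1 linker histone rose and 1 fell, and 3 genes of the Lin28 axis fell. Across all genes, 2986 were lower in that fit, against 1662 with all libraries. The 10.8% is therefore not the share to set beside these counts.

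Among the genes most like Hmgb2 over the 6 libraries, by Pearson correlation of log2 CPM among 9903 genes with a mean log2 CPM of at least 3, were Fgl2 (r = 0.9995), Lgals8 (r = 0.9994) and Trim30a (r = 0.9993). The 6 points fall into 2 groups far apart, so r says little beyond the group difference, and 760 genes (7.67%) had r above 0.95. The level of Trim30a, a TRIM-family gene of the immune response, was 82.9 ± 4.07 CPM with HMGB2 and 21.6 ± 3.32 CPM with vector (SD, n = 3 each). Lgals8, which encodes a galectin, had 119 ± 1.79 CPM with HMGB2 and 87.0 ± 3.07 CPM with vector.

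**Figure D4:**
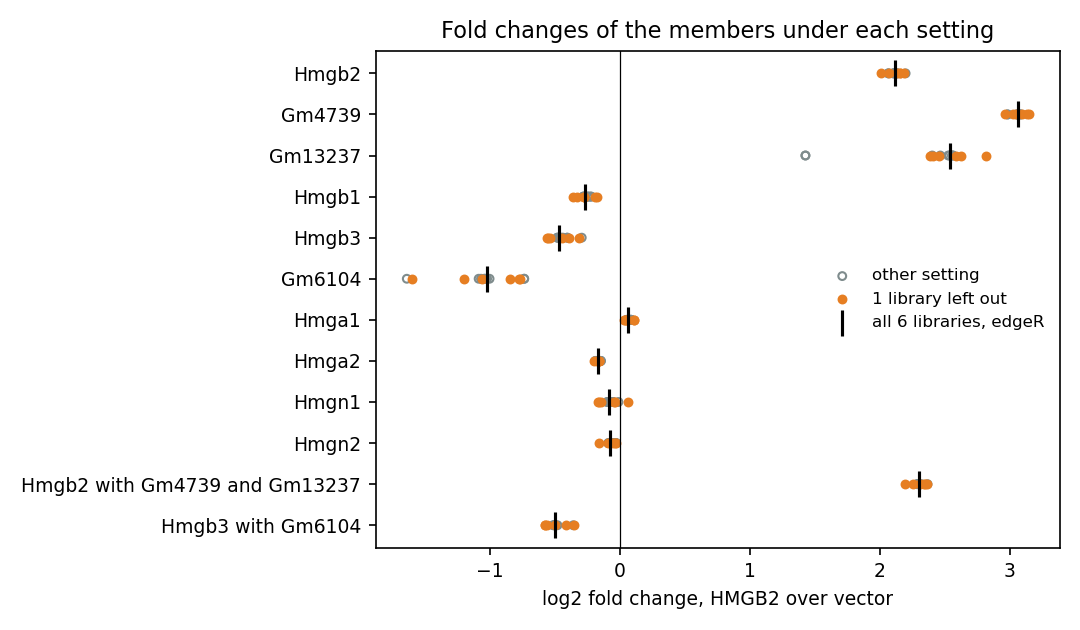
Log2 fold change of HMGB2 over vector (x axis) for the 10 genes and the 2 sums, with a black line for all 6 libraries in edgeR, orange points for the fits with 1 library left out and open circles for other settings. Hmgb2, Gm4739 and Gm13237 stay above 0 and Hmgb1, Hmgb3, Gm6104, Hmga2 and Hmgn2 below it in each fit shown, while Hmgn1 has 1 value above 0, at 0.06 without vector 1.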

How the data were processed

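The series holds 3 HMGB2 and 3 vector libraries. The deposited table holds raw counts per gene, and the other deposited table holds FPKM values (fragment counts divided by gene length and library size). The build mm10 and the tools StringTie 1.3.3b, HTSeq 0.6.1, HISAT2 2.2.1 and FastQC 0.10.1 come from the submitters' processing notes, which give them no role, and the strand setting is not given in the sources used here. Positions in the tables differed from GRCm38, so those of GENCODE M21 were printed, found through the Ensembl identifier.

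The test was edgeR 4.0.16 (R 4.3.3) on the counts (filterByExpr with minimum count 10 and minimum total count 15, TMM factors, robust quasi-likelihood fit, group as the only term), with Benjamini-Hochberg adjustment over 15429 genes and a threshold of 0.05. CPM are on TMM-scaled library sizes. Sums replaced the rows they were made of, and the fit was repeated. The test was checked on simulated data. Copies were found with blastn 2.17.0 in GENCODE M21 transcripts, which also gave the sequences. DESeq2 1.42.0, limma 3.58.1 on log2(FPKM + pseudocount) for genes with FPKM of at least 0.5, and fits without single libraries were alternatives.

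Libraries of the same group differed by more than sampling noise in each pair (lowest chi-square per degree of freedom 1.995). The labels do not say that replicates are separate cultures, so the p-values cover only the spread among these samples and may be technical in part. A two-sided permutation of 3 against 3 cannot go below 0.1. The members and lists were chosen with earlier results of these data known. By rule, at most 3 genes of a list that passed are named, by smallest p; where fewer than 2 passed, at most 2 genes with the highest mean are named. Any other list gene or copy named was chosen after its values were seen. A gene that the rule for likeness to Hmgb2 also takes is not reported here.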

Additional observations from a re-analysis of the deposited data

How the results depend on the processing

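Hmgb2, Gm4739 and Gm13237 stayed past the threshold and above 0 in all 15 alternatives, and Hmgb3 stayed below 0 in all 15 and past the threshold in 7. The alternatives refit the same data for genes picked with the comparison known, so they are no independent support. The log2 fold change of Hmgb2 was 2.30 with Gm4739 added to its row, 2.30 with both copies and 2.30 with every copy, the last chosen after seeing the data. The copies beyond Gm4739 held few counts, so these values could hardly differ. The log2 fold change of Hmgn1 was -0.169 to 0.0636 with 1 library left out, and its sign turned without vector 1, at 0.0636. Of all genes, 1387 were higher and 671 lower with limma on log2(FPKM + 1) and no filter, and 2986 were lower without vector 1 and HMGB2 3 together. Leaving out 1 library at a time left 866 to 1960 genes lower, with 866 without HMGB2 1, 897 without HMGB2 2 and 973 without vector 2. The cause was not tested. Deviations of equal replicate numbers correlated at -0.32, 0.23 and -0.38, while HMGB2 3 and vector 1 correlated at 0.52. Deviations within a group cancel out, which ties these correlations to each other, so they cannot decide whether replicate numbers pair the samples. With the replicate block 1459 genes were higher and 754 lower, Hmgb3 (-0.46) did not pass, and 2 of the other HMG-box genes, 1 of the HMGB receptors and partners, 1 of the Lin28 axis and 0 of the SET complex and cycling genes fell. Each symbol had 1 row, so the alternative for repeated symbols changed nothing, and the sums have no FPKM because the lengths of their rows differ. Gm13237, with 3 to 6 counts in vector libraries, and Gm6104 are limited by depth.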
